A study of Homo sapiens with 24 samples.

Results

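The genes of the mitotic apparatus are described here across 4 treatments of 1 human colorectal cancer cell clone. They were taken as the non-control probes whose gene name in the array files was one of 48 listed names of the spindle, the kinetochore, the chromosomal passenger complex, anaphase and condensin. All 48 were found, with 60 probes of the 34127 non-control probes of the array, and 59 of those probes passed the filter on dim probes. Each of the 48 kept at least 1 tested probe, so no member was lost to the filter, and 40 were well above background on all 24 arrays. In that count an array whose spot was left out as an outlier is taken as not well above background. Where a gene had several tested probes the one of highest mean level over all arrays was used, here and for the 15142 gene names tested in all.

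The cells were HCT-116, a colorectal cancer line with a mutation that keeps Wnt signaling active, in the form of a single stably transfected clone that carries a doxycycline-inducible dominant negative Tcf4 (DN-Tcf4). DN-Tcf4 occupies Tcf sites without binding beta-catenin and so lowers Wnt-driven transcription. The 4 groups were mock-treated cells (Ctl), cells given 5 mM sodium butyrate (NaB), cells given 4 ug/ml doxycycline (Doxy) and cells given both (DoxyNaB), and all 4 groups carried the inducible construct. The labels give 17.5 hr for either agent, and the study's methods give it for butyrate, added after doxycycline. Each group had 6 arrays, 1 from each of 6 numbered experiments, and the arrays had 1 color. Butyrate is a short-chain fatty acid made by gut bacteria from fiber, and it inhibits histone deacetylases.

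At mitosis the replicated chromosomes are compacted by condensin and topoisomerase II, and each pair of sister chromatids is attached to spindle microtubules by its kinetochores. Aurora and Polo-like kinases and the chromosomal passenger complex correct wrong attachments, the spindle assembly checkpoint delays anaphase until all kinetochores are attached, and the anaphase-promoting complex then marks securin and cyclin B for destruction so that separase can cut cohesin. Most of these genes are transcribed late in the cell cycle, and many of their promoters are known to hold a CHR element (TTTGAA), which is read by the DREAM and MuvB complexes, and CCAAT boxes, which are read by NF-Y. In a bulk sample fewer cells in mitosis and less RNA per cell cannot be told apart.

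The promoters of 7 members are shown because they stand at both ends of the response described further on. They are those of the 4 members with the largest falls and the 3 with the smallest changes under butyrate among the 41 members whose promoter was in the RefSeq table used (GRCh38.p14). Each runs from 250 bases before the start of the transcript to 50 after it, on the strand of the gene, and capitals mark TTTGAA or its reverse complement and CCAAT or its reverse complement. The windows are AURKB (chr17:8210176-8210475, minus strand, the first of 2 listed), ESPL1 (chr12:53268049-53268348, plus strand), BUB1B (chr15:40160819-40161118, plus strand), PLK1 (chr16:23678639-23678938, plus strand), CENPE (chr4:103198294-103198593, minus strand), NCAPG2 (chr7:158704755-158705054, minus strand) and NCAPH (chr2:96335516-96335815, plus strand).
AURKB: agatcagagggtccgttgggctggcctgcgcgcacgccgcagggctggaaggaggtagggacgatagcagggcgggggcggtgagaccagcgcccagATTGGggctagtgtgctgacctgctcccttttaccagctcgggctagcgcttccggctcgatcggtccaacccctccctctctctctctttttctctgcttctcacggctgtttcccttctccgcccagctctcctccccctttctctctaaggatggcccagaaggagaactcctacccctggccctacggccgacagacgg
ESPL1: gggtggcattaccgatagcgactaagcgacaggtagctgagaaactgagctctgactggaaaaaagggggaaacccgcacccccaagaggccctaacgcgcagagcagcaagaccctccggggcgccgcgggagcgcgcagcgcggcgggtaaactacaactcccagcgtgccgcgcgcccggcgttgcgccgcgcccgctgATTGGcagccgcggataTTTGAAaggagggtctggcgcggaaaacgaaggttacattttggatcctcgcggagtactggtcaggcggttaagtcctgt
BUB1B: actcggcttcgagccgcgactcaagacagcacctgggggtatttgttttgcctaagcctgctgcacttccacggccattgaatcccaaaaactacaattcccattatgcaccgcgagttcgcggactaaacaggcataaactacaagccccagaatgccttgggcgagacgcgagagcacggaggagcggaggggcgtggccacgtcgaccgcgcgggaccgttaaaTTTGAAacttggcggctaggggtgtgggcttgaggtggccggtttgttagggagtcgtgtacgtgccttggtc
PLK1: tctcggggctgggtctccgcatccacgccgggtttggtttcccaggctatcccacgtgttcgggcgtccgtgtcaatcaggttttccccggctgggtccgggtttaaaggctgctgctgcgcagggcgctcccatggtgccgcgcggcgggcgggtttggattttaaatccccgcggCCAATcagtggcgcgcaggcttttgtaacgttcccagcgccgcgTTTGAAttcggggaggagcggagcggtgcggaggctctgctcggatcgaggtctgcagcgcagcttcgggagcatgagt
CENPE: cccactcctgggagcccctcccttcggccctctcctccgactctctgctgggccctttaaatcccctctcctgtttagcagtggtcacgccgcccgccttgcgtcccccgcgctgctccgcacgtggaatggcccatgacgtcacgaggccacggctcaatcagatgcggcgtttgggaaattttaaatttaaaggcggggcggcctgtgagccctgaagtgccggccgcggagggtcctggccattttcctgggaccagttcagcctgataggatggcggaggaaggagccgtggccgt
NCAPG2: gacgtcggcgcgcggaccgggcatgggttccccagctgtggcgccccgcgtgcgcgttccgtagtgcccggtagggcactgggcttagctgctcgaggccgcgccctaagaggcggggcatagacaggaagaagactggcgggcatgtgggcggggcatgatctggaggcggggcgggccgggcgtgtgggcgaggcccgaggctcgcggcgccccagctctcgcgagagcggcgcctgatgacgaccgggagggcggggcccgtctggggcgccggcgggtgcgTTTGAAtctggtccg
NCAPH: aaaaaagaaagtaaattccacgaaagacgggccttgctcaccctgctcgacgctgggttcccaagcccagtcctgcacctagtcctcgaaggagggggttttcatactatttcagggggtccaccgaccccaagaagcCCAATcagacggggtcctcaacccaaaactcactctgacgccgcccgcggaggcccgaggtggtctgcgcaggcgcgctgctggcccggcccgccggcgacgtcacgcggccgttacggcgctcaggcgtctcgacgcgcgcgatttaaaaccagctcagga

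TTTGAA was present in 3 of the 4 windows from members with large falls, those of ESPL1, BUB1B and PLK1, and the AURKB window shown held CCAAT and no TTTGAA. Of the 3 windows from members with small changes, the one of NCAPG2 held TTTGAA 35 bases after the start, the one of NCAPH held CCAAT and the one of CENPE held neither. The NCAPH probe was dim, well above background on 4 of 6 NaB arrays, so its small change is uncertain.

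The same letters were searched on both strands in all windows. TTTGAA was present in 31 of the 41 members with a window (75.6%), compared with 15.8% of the 15843 protein-coding genes in the table and 13.3% of the genes tested here under a current symbol. CCAAT was present in 29 members (70.7%) and in 42.1% of protein-coding genes, and both motifs together in 22 members (53.7%) and in 8.17% of protein-coding genes. An E2F motif, TTTCCCGC or TTTGGCGC, was found in 4 members (9.76%, against 3.7%), and the Tcf motif CTTTGAT in 0 of 41 members and 2.61% of protein-coding genes. None of these motifs contains another. A gene with several windows was counted as holding a motif when any of them did, and these shares describe letters in a window and not binding. AURKA, TTK, CASC5, TPX2, UBE2C, BUB3 and BIRC5 had no window in the table.

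In the first listed window of each member the 58 CCAAT matches had a median position of -72 relative to the start, and 39 of them lay in the 100 bases before it. The 35 TTTGAA matches had a median position of -28, with 19 in the 100 bases before the start and 8 after it.

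**Figure D1:**
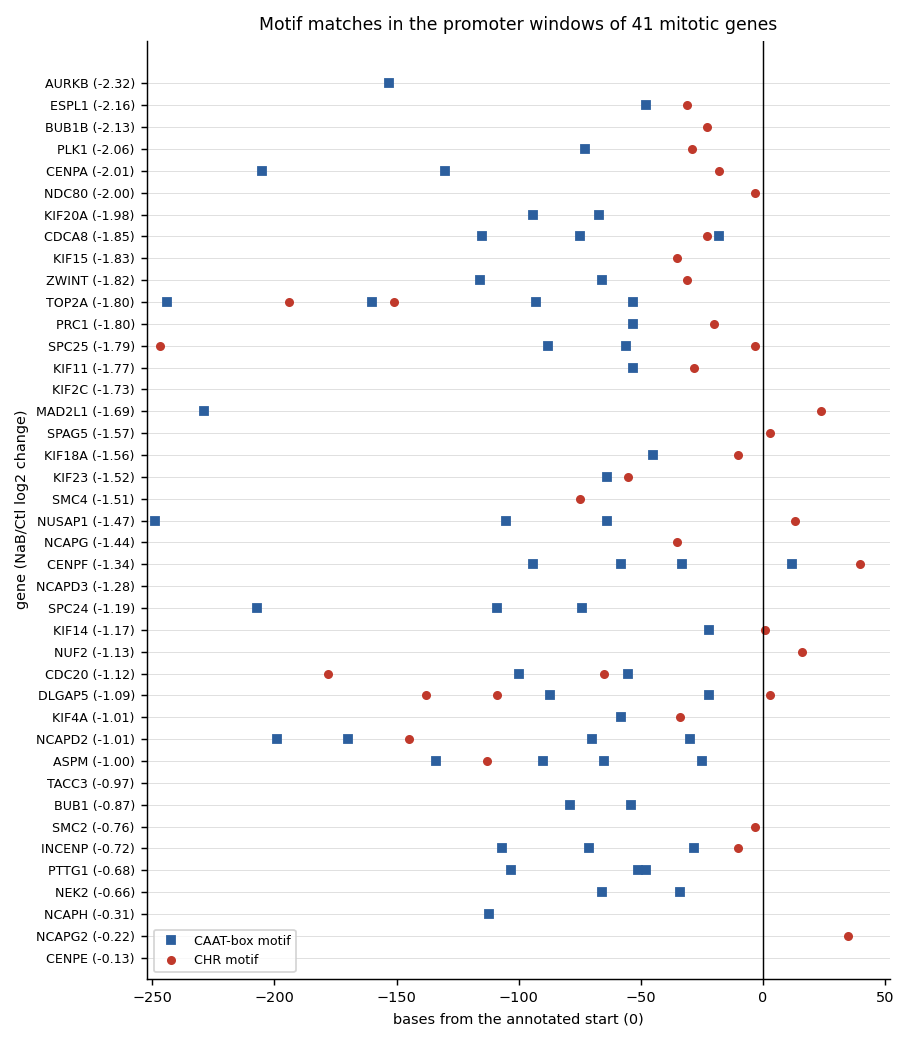
Positions of TTTGAA and CCAAT on either strand in the promoter windows of the members, with the distance from the transcript start in bases on the horizontal axis and 1 row per member on the vertical axis, ordered by its log2 change in NaB relative to Ctl. CCAAT matches cluster around a median of -72 and TTTGAA matches around -28.

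The arrays differed in brightness. Between 52.7% and 88.11% of spots were well above background, with at least 78.42% in experiments 2 to 4 and at most 62.6% in experiments 1, 5 and 6, and the 2 butyrate arrays NaB of experiment 3 and DoxyNaB of experiment 2 had the highest negative controls (161 and 248.9 signal units, against 48.38 to 114.6 on the other 22). In experiments 2 to 6 each treatment had its own position on the slide, so position and treatment cannot be told apart there. In experiment 1 the butyrate arrays were on another slide and had another scan date than the others, so these and butyrate cannot be told apart there. Experiments 2 to 4 shared a scan date, and experiments 5 and 6 shared another. The study describes the experiments as biological replicates, and p-values measure the spread between them. Of the colon epithelium markers 6 of 7 were well above background on at least 22 of 24 arrays, VIL1 was so on 5, and 11 markers of fibroblasts, leukocytes and endothelium were so on 0 (COL3A1) to 23 arrays. AXIN2, a Wnt target that checks the DN-Tcf4 labels, was lower in Doxy than in Ctl (log2 -0.58, SE 0.09, adjusted p = 0.00289, lower in 6 of 6 experiments) and lower in DoxyNaB than in NaB (log2 -2.53, adjusted p = 2.63e-11). The 3 tested probes of TCF7L2, the gene of Tcf4, differed between Doxy and Ctl by 0.30, -0.17 and 0.36 on the log2 scale with no adjusted p under 0.01, and between DoxyNaB and NaB by 4.46, 2.96 and -1.25. Whether these probes lie within the DN-Tcf4 construct is not given in the sources used here, so they do not settle its level. The study's western blot found little DN-Tcf4 protein with doxycycline alone and much of it with both agents. In its reporter assay Wnt activity was lower with doxycycline alone than in untreated cells, a difference given without a p-value. That activity was far lower with both agents than with butyrate alone. Doxy relative to Ctl is read below as a comparison of doxycycline alone. By that blot, DoxyNaB and Doxy differ in DN-Tcf4 as well as in butyrate.

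Most of the mitotic genes were lower with butyrate, and none was called higher. In the comparison of NaB with Ctl, 44 of 48 members fell and 36 of them fell by more than 2-fold, from all 8 role groups. The largest falls were those of UBE2C, the ubiquitin-conjugating enzyme of the anaphase-promoting complex, and AURKB, the kinase of the chromosomal passenger complex. CENPE, a kinetochore motor, and the condensin subunits NCAPG2 and NCAPH were not past the threshold. A level here is the log2 of the background-corrected signal minus the log2 of the array's 75th percentile signal, so that 0 is a signal at that percentile. A gene fell when its adjusted p in limma (Benjamini-Hochberg over all 18962 tested probes) was under 0.01, and it is called when the change also exceeded 2-fold.

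The 36 members called lower are to be read against 11.5% of all tested genes, and the 0 members called higher against 21%. The 44 that fell by the p alone stand beside 29% of all genes. The median change over the 48 members was -1.49 on the log2 scale, from -2.34 to -0.13, while the median over all tested genes was 0.17. In 44 members the NaB array was below the Ctl array of the same experiment in every experiment measured (29.9% of all genes), and in 39 members all NaB arrays lay below all Ctl arrays (20% of all genes). The 4 members not past the threshold were CASC5 (adjusted p = 0.0259), NCAPH (0.366), NCAPG2 (0.219) and CENPE (0.355). A floor of 5 signal units together with scaling to the array's median, in place of its 75th percentile, moved the median of all tested probes from 0.17 to -0.58 and the calls over all probes from 2087 lower and 3926 higher to 6123 lower and 1641 higher, and the members from 36 to 46 lower with 0 higher. Relative to all genes, the members' median was -1.65 with the 75th percentile and lay between -2.19 and -1.35 over 22 settings.

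The falls were also present with doxycycline. In the comparison of DoxyNaB with Doxy, 44 members fell (30.3% of all genes) and 29 were called lower (12.5% of all genes were), with 0 called higher (18.7%), and the median change was -1.28 against 0.11 over all genes. The members lay lower in every experiment in 43 of 48 cases (29.1% of all genes), and in 40 all DoxyNaB arrays lay below all Doxy arrays (20.9%). Not past the threshold here were SMC2 (adjusted p = 0.0822), NCAPH (0.466), NCAPG2 (0.0985) and CENPE (0.523). When the 2 butyrate arrays with the brightest negative controls were left out, the members called lower were 35 in NaB against Ctl (11.7% of all genes) and 29 in DoxyNaB against Doxy (12.6%).

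**Figure D2:**
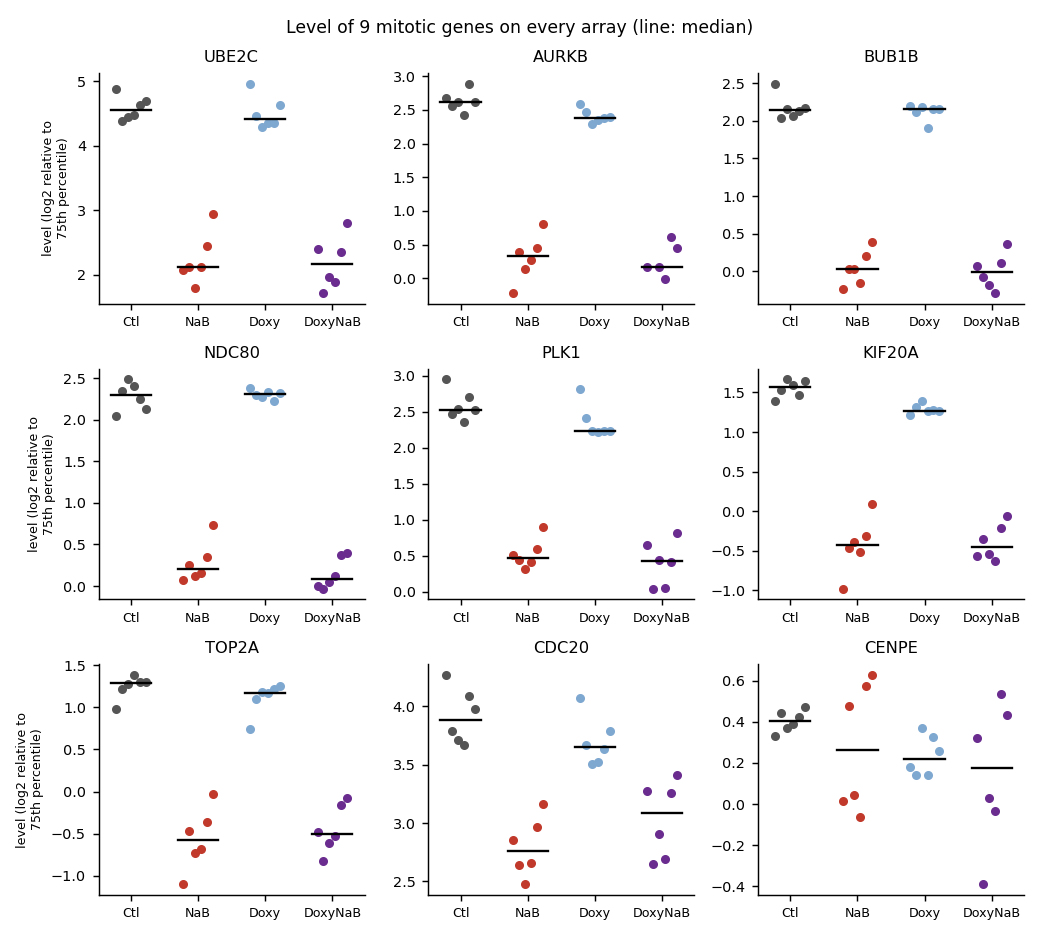
Level of 9 mitotic genes on every array, as the log2 of the signal relative to the array's 75th percentile (vertical axes) by treatment (horizontal axes), with 1 point per array and a line at the median. The butyrate arrays of UBE2C and AURKB lie wholly below the arrays without butyrate, and those of CENPE overlap them.

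**Figure D3:**
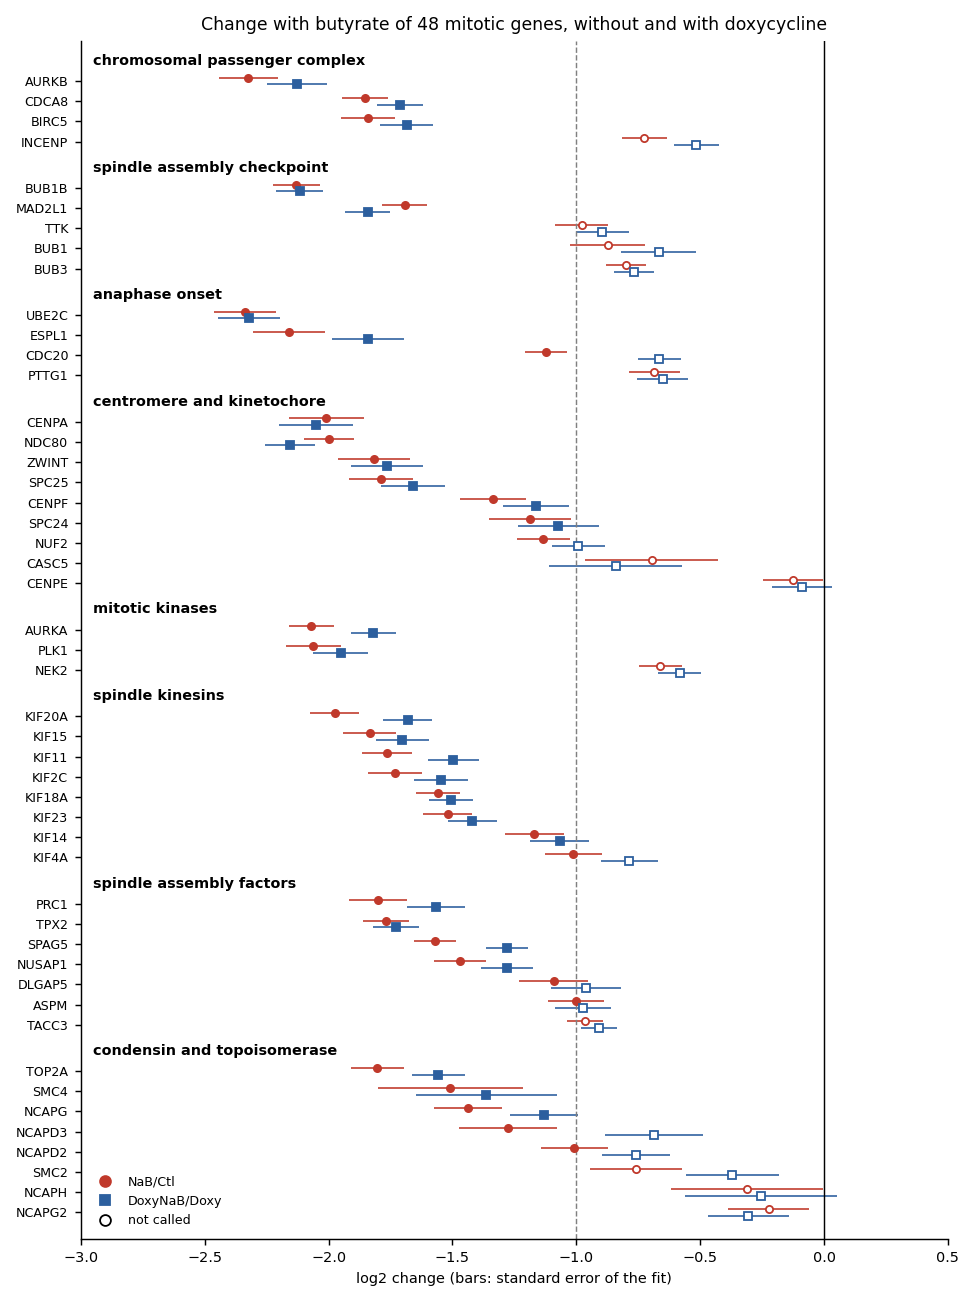
Log2 change of each of the 48 members in NaB relative to Ctl and in DoxyNaB relative to Doxy, grouped by role on the vertical axis, with bars of 1 SE from the limma fit, filled symbols for called changes and a dashed line at a 2-fold fall. Every point lies below 0, from -2.34 for UBE2C to -0.09 for CENPE.

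The chromosomal passenger complex corrects wrong attachments at the centromere and later drives cytokinesis. Of its 4 genes 3 were called lower with and without doxycycline, with a median change of -1.85 in NaB relative to Ctl. AURKB, its kinase, was measured by a probe at chr17:8051380-8051642 (minus strand), with this and all later probe positions on NCBI36 as the array files give it. Its level ran from 2.43 to 2.89 in Ctl (median 2.61) and from -0.22 to 0.81 in NaB (median 0.33), and with doxycycline from 2.29 to 2.59 in Doxy (median 2.38) and from -0.01 to 0.62 in DoxyNaB (median 0.17). Values were available from 6 Ctl, 6 NaB, 6 Doxy and 5 DoxyNaB arrays. Every butyrate array of AURKB was below every array without butyrate of the same doxycycline state. AURKB fell 5.01-fold with butyrate, a log2 change of -2.32 (SE 0.12, adjusted p = 1.42e-11), and changed by -2.13 (SE 0.12, adjusted p = 5.02e-11) with doxycycline. CDCA8, borealin, which helps to place the complex at the centromere, has its probe at chr1:37947736-37947795 (plus strand). The Ctl arrays gave levels of 3.12 to 3.60 with a median of 3.47 and the NaB arrays of 1.301 to 2.00 with a median of 1.53. The corresponding levels were 2.95 to 3.28 in Doxy (median 3.16) and 1.09 to 1.80 in DoxyNaB (median 1.49). For CDCA8 no butyrate array reached the lowest array of its control group. This was a log2 change of -1.85 (SE 0.09, 3.61-fold lower, adjusted p = 3.77e-12) in NaB relative to Ctl, and one of -1.71 (SE 0.09, adjusted p = 1.02e-11) in DoxyNaB relative to Doxy. BIRC5, survivin, which binds the phosphorylated histone tail, fell by 1.84 on the log2 scale (SE 0.11, adjusted p = 3.09e-11). INCENP, the scaffold that holds the complex together, was measured at chr11:61676318-61676377 (plus strand). Levels of INCENP were -0.72 to -0.48 in Ctl and -1.65 to -1.03 in NaB, with medians of -0.58 and -1.32, and -0.95 to -0.68 in Doxy and -1.56 to -1.10 in DoxyNaB, with medians of -0.83 and -1.30. The INCENP arrays with and without butyrate did not overlap in either pair of groups. INCENP fell 1.65-fold in NaB relative to Ctl (log2 -0.72, SE 0.09, adjusted p = 1.08e-06) and had a log2 change of -0.51 (SE 0.09, adjusted p = 6.1e-05) in DoxyNaB relative to Doxy. INCENP was thus the member of the complex that fell but missed the 2-fold call.

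The spindle assembly checkpoint holds back anaphase while a kinetochore is unattached. All 5 of its members fell, 2 of them by more than 2-fold, with a median change of -0.98. BUB1B, BubR1, which is part of the complex that inhibits CDC20, was measured at chr15:38300120-38300179 (plus strand). Without butyrate BUB1B lay at 2.04 to 2.49 in Ctl (median 2.14) and 1.90 to 2.20 in Doxy (median 2.15). With butyrate it lay at -0.24 to 0.39 in NaB (median 0.03) and -0.29 to 0.36 in DoxyNaB (median -0.0023). In both pairs of groups all BUB1B values with butyrate were the lower ones. The fitted log2 change of BUB1B was -2.13 (SE 0.09, 4.38-fold lower, adjusted p = 6.75e-13) without doxycycline and -2.12 (SE 0.09, adjusted p = 6.82e-13) with it. MAD2L1, Mad2, which binds CDC20 at unattached kinetochores, has its probe at chr4:121200794-121200853 (minus strand). Over the experiments the MAD2L1 level was 3.69 to 3.89 in Ctl and 1.84 to 2.45 in NaB (medians 3.74 and 1.96), and it was 3.67 to 3.82 in Doxy and 1.67 to 2.23 in DoxyNaB (medians 3.75 and 1.88). The highest butyrate array of MAD2L1 was below the lowest array of the matching group in both pairs. With butyrate MAD2L1 fell 3.23-fold in cells without doxycycline (log2 -1.69, SE 0.09, adjusted p = 1.1e-11), and in cells with it the log2 change was -1.84 (SE 0.09, adjusted p = 3.36e-12). BUB3, which brings BUB1 and BubR1 to the kinetochore, was measured at chr10:124907252-124907311 (plus strand). Its level ran from 3.56 to 3.86 in Ctl (median 3.76) and from 2.67 to 3.22 in NaB (median 2.93), and with doxycycline from 3.53 to 3.74 in Doxy (median 3.59) and from 2.52 to 3.11 in DoxyNaB (median 2.83). Every butyrate array of BUB3 was below every array without butyrate of the same doxycycline state. BUB3 fell 1.74-fold with butyrate, a log2 change of -0.80 (SE 0.08, adjusted p = 6.51e-08), and changed by -0.77 (SE 0.08, adjusted p = 1.15e-07) with doxycycline. The other tested probe of BUB3 gave -1.40 and -1.59 in the same comparisons, so the probes disagree on the call. TTK and BUB1, the checkpoint kinases, changed by -0.98 (adjusted p = 1.64e-07) and -0.87 in NaB relative to Ctl, and the arrays of BUB1 overlapped between the groups.

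The genes of anaphase onset comprise the ubiquitin-conjugating enzyme and the activator of the anaphase-promoting complex, securin and separase. Of these 4, 3 were called lower in NaB relative to Ctl and 2 in DoxyNaB relative to Doxy. UBE2C was measured at chr20:43878932-43878991 (plus strand). The Ctl arrays gave levels of 4.39 to 4.88 with a median of 4.56 and the NaB arrays of 1.79 to 2.94 with a median of 2.12. The corresponding levels were 4.29 to 4.96 in Doxy (median 4.41) and 1.72 to 2.80 in DoxyNaB (median 2.16). For UBE2C no butyrate array reached the lowest array of its control group. This was a log2 change of -2.34 (SE 0.13, 5.05-fold lower, adjusted p = 1.21e-11) in NaB relative to Ctl, and one of -2.32 (SE 0.13, adjusted p = 1.24e-11) in DoxyNaB relative to Doxy. ESPL1, separase, the protease that cuts cohesin, has its probe at chr12:51973015-51973376 (plus strand). Levels of ESPL1 were 0.53 to 1.85 in Ctl and -1.53 to -1.17 in NaB, with medians of 0.66 and -1.31, and 0.35 to 1.52 in Doxy and -1.60 to -0.81 in DoxyNaB, with medians of 0.47 and -1.18. The ESPL1 arrays with and without butyrate did not overlap in either pair of groups. ESPL1 fell 4.47-fold in NaB relative to Ctl (log2 -2.16, SE 0.15, adjusted p = 2.34e-10) and had a log2 change of -1.84 (SE 0.15, adjusted p = 2.18e-09) in DoxyNaB relative to Doxy. The ESPL1 levels of experiment 1 stood high in both groups without butyrate, at 1.85 in Ctl and 1.52 in Doxy. PTTG1, securin, which holds separase inactive, was measured at chr5:159788222-159788281 (plus strand). Without butyrate PTTG1 lay at 4.22 to 4.66 in Ctl (median 4.46) and 4.06 to 4.75 in Doxy (median 4.22). With butyrate it lay at 3.37 to 4.23 in NaB (median 3.69) and 3.13 to 4.00 in DoxyNaB (median 3.77). The PTTG1 arrays overlapped between NaB and Ctl and not between DoxyNaB and Doxy. The fitted log2 change of PTTG1 was -0.68 (SE 0.10, 1.61-fold lower, adjusted p = 9.99e-06) without doxycycline and -0.65 (SE 0.10, adjusted p = 1.81e-05) with it. PTTG1 thus fell in both comparisons, by less than 2-fold.

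The centromere and kinetochore group held 9 members, of which 7 were called lower in NaB relative to Ctl and 6 in DoxyNaB relative to Doxy. CENPA, the histone H3 variant that marks the centromere, was measured at chr2:26870418-26870477 (plus strand). Over the experiments the CENPA level was -0.24 to 0.24 in Ctl and -2.37 to -1.44 in NaB (medians 0.09 and -1.99), and it was -0.42 to -0.03 in Doxy and -2.92 to -1.92 in DoxyNaB (medians -0.16 and -2.18). The highest butyrate array of CENPA was below the lowest array of the matching group in both pairs. With butyrate CENPA fell 4.02-fold in cells without doxycycline (log2 -2.01, SE 0.15, adjusted p = 9.61e-10), and in cells with it the log2 change was -2.05 (SE 0.15, adjusted p = 7.2e-10). NDC80, the kinetochore subunit that grips the microtubule, has its probe at chr18:2600798-2600857 (plus strand). Its level ran from 2.04 to 2.49 in Ctl (median 2.30) and from 0.07 to 0.73 in NaB (median 0.20), and with doxycycline from 2.23 to 2.38 in Doxy (median 2.31) and from -0.03 to 0.39 in DoxyNaB (median 0.08). Every butyrate array of NDC80 was below every array without butyrate of the same doxycycline state. NDC80 fell 4.00-fold with butyrate, a log2 change of -1.9998 (SE 0.10, adjusted p = 4.7e-12), and changed by -2.16 (SE 0.10, adjusted p = 1.61e-12) with doxycycline. Its partners in the Ndc80 complex, SPC25, SPC24 and NUF2, changed by -1.79, -1.19 and -1.13, and all 4 subunits fell. ZWINT, which links the checkpoint to the outer kinetochore, fell by 1.82 on the log2 scale.

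CENPE, a kinesin that carries chromosomes to the spindle equator, passed the threshold in neither comparison, and its probe was at chr4:104246788-104246847 (minus strand). The Ctl arrays gave levels of 0.33 to 0.47 with a median of 0.41 and the NaB arrays of -0.06 to 0.63 with a median of 0.26. The corresponding levels were 0.14 to 0.37 in Doxy (median 0.22) and -0.39 to 0.54 in DoxyNaB (median 0.17). The CENPE arrays with and without butyrate overlapped in both pairs of groups. The log2 changes were -0.13 (SE 0.12, adjusted p = 0.355) in NaB relative to Ctl and -0.09 (SE 0.12, adjusted p = 0.523) in DoxyNaB relative to Doxy. The NaB array was below the Ctl array in 3 of 6 experiments, with changes of -0.32, 0.03, -0.32, -0.45, 0.15 and 0.16 in experiments 1 to 6. CENPF, a large protein of the outer kinetochore, was measured at chr1:212903931-212903990 (plus strand). Levels of CENPF were 3.17 to 3.51 in Ctl and 1.69 to 2.53 in NaB, with medians of 3.35 and 1.95, and 3.02 to 3.29 in Doxy and 1.53 to 2.61 in DoxyNaB, with medians of 3.23 and 1.99. The CENPF arrays with and without butyrate did not overlap in either pair of groups. CENPF fell 2.52-fold in NaB relative to Ctl (log2 -1.34, SE 0.13, adjusted p = 5e-08) and had a log2 change of -1.16 (SE 0.13, adjusted p = 3.23e-07) in DoxyNaB relative to Doxy. CASC5, the scaffold of the outer kinetochore, changed by -0.70 in NaB relative to Ctl and fell by 0.84 in DoxyNaB relative to Doxy (adjusted p = 0.00891). The CASC5 probe was dim, with a mean level of -2.85, and was well above background on 5 of 6 NaB arrays.

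The mitotic kinases were AURKA, PLK1 and NEK2, and 2 of these 3 were called lower in both comparisons. AURKA, which acts at the centrosome and the spindle poles, was measured at chr20:54378527-54378586 (minus strand). Without butyrate AURKA lay at 2.08 to 2.34 in Ctl (median 2.20) and 1.82 to 2.21 in Doxy (median 1.97). With butyrate it lay at -0.20 to 0.54 in NaB (median 0.26) and -0.12 to 0.58 in DoxyNaB (median 0.10). Values were available from 5 Ctl, 6 NaB, 6 Doxy and 5 DoxyNaB arrays. In both pairs of groups all AURKA values with butyrate were the lower ones. The fitted log2 change of AURKA was -2.07 (SE 0.09, 4.2-fold lower, adjusted p = 5.41e-12) without doxycycline and -1.82 (SE 0.09, adjusted p = 2.44e-11) with it. PLK1, the Polo-like kinase of mitotic entry, centrosomes and kinetochores, has its probe at chr16:23608471-23608713 (plus strand). Over the experiments the PLK1 level was 2.36 to 2.95 in Ctl and 0.31 to 0.91 in NaB (medians 2.53 and 0.47), and it was 2.22 to 2.81 in Doxy and 0.05 to 0.82 in DoxyNaB (medians 2.23 and 0.43). The highest butyrate array of PLK1 was below the lowest array of the matching group in both pairs. With butyrate PLK1 fell 4.17-fold in cells without doxycycline (log2 -2.06, SE 0.11, adjusted p = 1.04e-11), and in cells with it the log2 change was -1.95 (SE 0.11, adjusted p = 2.07e-11). NEK2, a kinase that parts the centrosomes, was measured at chr1:209903484-209903543 (minus strand). Its level ran from 0.67 to 1.42 in Ctl (median 1.09) and from -0.13 to 0.82 in NaB (median 0.50), and with doxycycline from 0.68 to 1.25 in Doxy (median 1.07) and from 0.09 to 0.69 in DoxyNaB (median 0.49). The NEK2 arrays with and without butyrate overlapped in both pairs of groups. NEK2 fell 1.58-fold with butyrate, a log2 change of -0.66 (SE 0.09, adjusted p = 2.19e-06), and changed by -0.58 (SE 0.09, adjusted p = 1.01e-05) with doxycycline. NEK2 thus fell in both comparisons, by less than 2-fold.

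All 8 kinesins were called lower in NaB relative to Ctl and 7 in DoxyNaB relative to Doxy, with a median change of -1.65 in NaB. KIF20A, a kinesin of the central spindle and cytokinesis, was measured at chr5:137549980-137550703 (plus strand). The Ctl arrays gave levels of 1.39 to 1.67 with a median of 1.56 and the NaB arrays of -0.98 to 0.09 with a median of -0.43. The corresponding levels were 1.21 to 1.39 in Doxy (median 1.27) and -0.63 to -0.06 in DoxyNaB (median -0.45). For KIF20A no butyrate array reached the lowest array of its control group. This was a log2 change of -1.98 (SE 0.10, 3.93-fold lower, adjusted p = 4.76e-12) in NaB relative to Ctl, and one of -1.68 (SE 0.10, adjusted p = 4e-11) in DoxyNaB relative to Doxy. KIF15, which pushes the spindle poles apart beside KIF11, has its probe at chr3:44869390-44869449 (plus strand). Levels of KIF15 were 0.38 to 0.71 in Ctl and -1.67 to -1.08 in NaB, with medians of 0.42 and -1.34, and 0.20 to 0.64 in Doxy and -1.68 to -1.09 in DoxyNaB, with medians of 0.36 and -1.30. The KIF15 arrays with and without butyrate did not overlap in either pair of groups. KIF15 fell 3.57-fold in NaB relative to Ctl (log2 -1.83, SE 0.11, adjusted p = 3.01e-11) and had a log2 change of -1.70 (SE 0.11, adjusted p = 8.15e-11) in DoxyNaB relative to Doxy. KIF4A, a kinesin that rides on chromosome arms and shapes the central spindle, was measured at chrX:69556872-69556931 (plus strand). Without butyrate KIF4A lay at 0.54 to 0.94 in Ctl (median 0.81) and 0.67 to 0.83 in Doxy (median 0.71). With butyrate it lay at -0.70 to 0.11 in NaB (median -0.18) and -0.36 to 0.33 in DoxyNaB (median -0.04). In both pairs of groups all KIF4A values with butyrate were the lower ones. The fitted log2 change of KIF4A was -1.01 (SE 0.12, 2.02-fold lower, adjusted p = 2.74e-07) without doxycycline and -0.79 (SE 0.12, adjusted p = 6.81e-06) with it. The other kinesins lay between these ends, KIF11 at -1.77, KIF2C at -1.73, KIF18A at -1.56, KIF23 at -1.52 and KIF14 at -1.17.

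Among the spindle assembly factors 6 of 7 were called lower in NaB relative to Ctl and 4 in DoxyNaB relative to Doxy, with a median change of -1.47 in NaB. PRC1, which bundles the microtubules of the central spindle, was measured at chr15:89310430-89310489 (minus strand). Over the experiments the PRC1 level was 3.33 to 3.51 in Ctl and 1.302 to 2.19 in NaB (medians 3.44 and 1.55), and it was 3.096 to 3.44 in Doxy and 1.27 to 2.27 in DoxyNaB (medians 3.37 and 1.69). The highest butyrate array of PRC1 was below the lowest array of the matching group in both pairs. With butyrate PRC1 fell 3.48-fold in cells without doxycycline (log2 -1.80, SE 0.12, adjusted p = 1.34e-10), and in cells with it the log2 change was -1.57 (SE 0.12, adjusted p = 9.18e-10). TPX2, which activates AURKA and starts microtubules near chromosomes, has its probe at chr20:29852634-29852693 (plus strand). Its level ran from 3.29 to 3.53 in Ctl (median 3.38) and from 1.27 to 2.06 in NaB (median 1.57), and with doxycycline from 3.21 to 3.395 in Doxy (median 3.27) and from 1.25 to 2.09 in DoxyNaB (median 1.48). Every butyrate array of TPX2 was below every array without butyrate of the same doxycycline state. TPX2 fell 3.41-fold with butyrate, a log2 change of -1.77 (SE 0.09, adjusted p = 6.92e-12), and changed by -1.73 (SE 0.09, adjusted p = 8.88e-12) with doxycycline. TACC3, which stiffens kinetochore fibers, was measured at chr4:1711276-1711515 (plus strand). The Ctl arrays gave levels of 2.34 to 3.16 with a median of 2.53 and the NaB arrays of 1.41 to 1.79 with a median of 1.64. The corresponding levels were 2.22 to 2.75 in Doxy (median 2.28) and 1.16 to 1.81 in DoxyNaB (median 1.51). For TACC3 no butyrate array reached the lowest array of its control group. This was a log2 change of -0.97 (SE 0.07, 1.95-fold lower, adjusted p = 9.93e-10) in NaB relative to Ctl, and one of -0.91 (SE 0.07, adjusted p = 2.35e-09) in DoxyNaB relative to Doxy. TACC3 was the member of this group that stayed under 2-fold in NaB relative to Ctl. SPAG5, NUSAP1, DLGAP5 and ASPM, which act at the poles and on spindle microtubules, fell by 1.57, 1.47, 1.09 and 1.001 on the log2 scale.

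The group of condensin and topoisomerase held 8 members, of which 5 were called lower in NaB relative to Ctl and 3 in DoxyNaB relative to Doxy, and it had the median change of -1.14. TOP2A, topoisomerase II alpha, which untangles sister DNA, was measured at chr17:35799235-35799294 (minus strand). Levels of TOP2A were 0.98 to 1.39 in Ctl and -1.10 to -0.03 in NaB, with medians of 1.29 and -0.58, and 0.75 to 1.25 in Doxy and -0.82 to -0.08 in DoxyNaB, with medians of 1.17 and -0.51. The TOP2A arrays with and without butyrate did not overlap in either pair of groups. TOP2A fell 3.49-fold in NaB relative to Ctl (log2 -1.80, SE 0.11, adjusted p = 3.81e-11) and had a log2 change of -1.56 (SE 0.11, adjusted p = 2.84e-10) in DoxyNaB relative to Doxy. SMC4, an ATPase core subunit of condensin, has its probe at chr3:161634275-161634334 (plus strand). Without butyrate SMC4 lay at 1.51 to 2.16 in Ctl (median 1.81) and 1.01 to 1.94 in Doxy (median 1.85). With butyrate it lay at -0.11 to 0.65 in NaB (median 0.39) and -1.11 to 0.84 in DoxyNaB (median 0.69). Values were available from 4 Ctl, 6 NaB, 5 Doxy and 6 DoxyNaB arrays. In both pairs of groups all SMC4 values with butyrate were the lower ones. The fitted log2 change of SMC4 was -1.51 (SE 0.29, 2.84-fold lower, adjusted p = 0.000243) without doxycycline and -1.36 (SE 0.28, adjusted p = 0.000496) with it. The missing SMC4 values were spots with an outlier flag, and its other tested probe gave -0.91 and -0.86. Without experiment 2 the change of SMC4 in DoxyNaB relative to Doxy was -0.98, which ends its call.

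NCAPG2, a subunit of condensin II, was measured at chr7:158129745-158129804 (minus strand). Over the experiments the NCAPG2 level was -1.37 to -0.75 in Ctl and -1.62 to -1.14 in NaB (medians -1.18 and -1.39), and it was -1.90 to -0.55 in Doxy and -1.61 to -1.07 in DoxyNaB (medians -0.87 and -1.21). The NCAPG2 arrays with and without butyrate overlapped in both pairs of groups. The log2 changes were -0.22 (SE 0.16, adjusted p = 0.219) in NaB relative to Ctl and -0.30 (SE 0.16, adjusted p = 0.0985) in DoxyNaB relative to Doxy. NCAPH, the kleisin that closes the condensin I ring, changed by -0.31 and -0.25 in these comparisons and was past the threshold in neither, and its sign turned in experiments 2 to 4 alone (0.25 and 0.44). NCAPG, NCAPD3 and NCAPD2, the other non-SMC subunits, fell by 1.44, 1.28 and 1.01 on the log2 scale in NaB relative to Ctl. SMC2, the partner of SMC4, fell by 0.76 (adjusted p = 0.00132) and changed by -0.37 in DoxyNaB relative to Doxy.

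**Figure D4:**
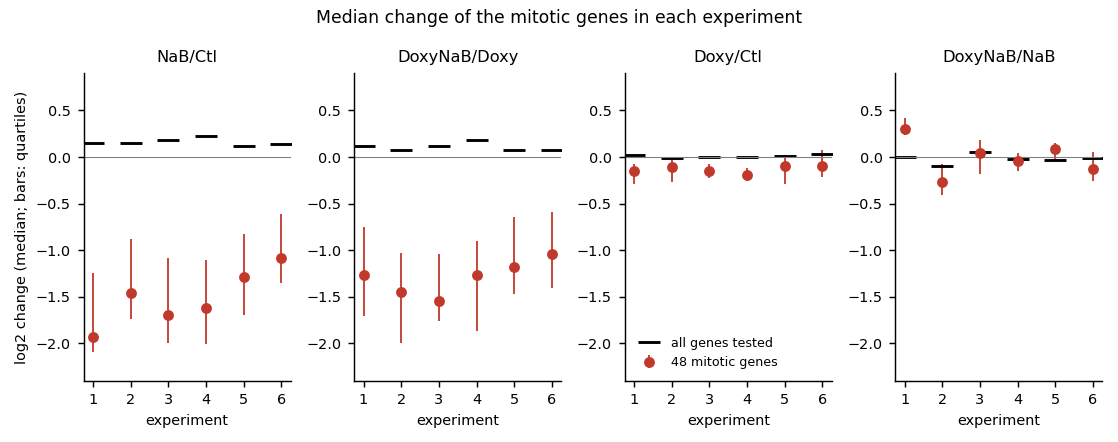
Median log2 change of the 48 members (vertical axis) in each of the 6 experiments (horizontal axis) for 4 comparisons of treatments, with bars to the quartiles over members and a dash at the median of all genes tested. The medians lie between -1.93 and -1.09 for NaB relative to Ctl and between -1.54 and -1.05 for DoxyNaB relative to Doxy.

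The members moved down in every experiment. In NaB relative to Ctl their median change was -1.93, -1.46, -1.69, -1.62, -1.28 and -1.09 in experiments 1 to 6, and in DoxyNaB relative to Doxy it was -1.26, -1.45, -1.54, -1.26, -1.18 and -1.05. Within experiments 2 to 4 alone 37 members were called lower in NaB relative to Ctl (10.9% of all genes) and 35 in DoxyNaB relative to Doxy (12% of all genes), and within experiments 5 and 6 alone 27 (12.1%) and 25 (13.4%) were. In 11 genes with 2 tested probes the calls differed between the probes for 2 genes (BUB3 and SMC4) in NaB relative to Ctl and for 4 (BUB3, SMC4, CENPF and KIF4A) in DoxyNaB relative to Doxy, and no pair differed by over 1 on the log2 scale.

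Of the 36 members called lower in NaB relative to Ctl, 29 were also called in DoxyNaB relative to Doxy and 7 were not, while 0 were called in the latter comparison alone. Over all genes 4.84% were called in NaB relative to Ctl and not in DoxyNaB relative to Doxy. The 7 members were NCAPD3, NUF2, CDC20, DLGAP5, KIF4A, NCAPD2 and ASPM, and each also fell in DoxyNaB relative to Doxy (adjusted p of at most 0.00469) by less than 2-fold. Whether the butyrate response differed with doxycycline is asked by the interaction, the change under butyrate without doxycycline minus the change with it. No member passed it in limma (1.35% of all genes did), 2 had an unadjusted p under 0.05 (12.5% of all genes), and the methods' paired t-test gave an unadjusted p under 0.01 for 2, CDC20 and KIF20A (1.2% of all genes in that direction).

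CDC20, the activator of the anaphase-promoting complex and the target of the checkpoint, had the smallest adjusted p of the interaction, with its probe at chr1:43599124-43599183 (plus strand). Its level ran from 3.67 to 4.27 in Ctl (median 3.88) and from 2.48 to 3.16 in NaB (median 2.76), and with doxycycline from 3.50 to 4.07 in Doxy (median 3.65) and from 2.65 to 3.41 in DoxyNaB (median 3.08). Every butyrate array of CDC20 was below every array without butyrate of the same doxycycline state. CDC20 fell 2.18-fold with butyrate, a log2 change of -1.12 (SE 0.09, adjusted p = 1.24e-09), and changed by -0.66 (SE 0.09, adjusted p = 1.39e-06) with doxycycline. The interaction was -0.46 (SE 0.12, adjusted p = 0.0609), below 0 in 6 of 6 experiments, and over the settings tried it lay between -0.65 and -0.18, the latter with normexp background correction. Over these settings its adjusted p in limma ran from 0.0243 (quantile normalization) to 0.997 (experiments 2 to 4 alone), and none was under 0.01. NCAPD3, a subunit of condensin II, had the largest interaction, -0.59, of which experiment 1 gave -2.22, and without experiment 1 it was -0.26. Each of the 7 members thus fell in both comparisons, and for none did the difference between the comparisons pass the test in limma.

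As a whole 43 of 48 members lay below 0 in the interaction, where 41.8% of all genes did, and the median was -0.13 against 0.04 for all genes. By experiment the median lay between -0.46 (experiment 1) and 0.17 (experiment 2). It was -0.07 without experiment 1, with 33 of 48 members below 0, and -0.02 with normexp background correction, with 27 of 48 members below 0, and with a floor of 5 and median scaling it was -0.32, with 48 of 48 below 0. Relative to the median of all genes it lay between -0.26 and 0.04 over 21 settings, so that its sign against all genes turned with normexp. These members share arrays and do not move independently, and no test was made over them.

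No member passed the test for doxycycline alone. In Doxy relative to Ctl, 0 of 48 passed the adjusted p in limma, where 0.555% of all genes did, and the smallest adjusted p was 0.0853 for SPAG5 (log2 -0.31). At an unadjusted p under 0.05 there were 8 members (13.3% of all genes), and the methods' t-test gave an unadjusted p under 0.01 for 13, all lower (3.71% of all genes). The changes were small and leaned one way, with 43 of 48 below 0 (45% of all genes) and a median of -0.14, beside 0.02 over all genes. The experiments gave medians between -0.19 and -0.10, so the lean was present in each of them. Over 22 settings the median lay between -0.22 and -0.07, with 31 to 46 members below 0. Relative to the median of all genes it lay between -0.17 and -0.05, the latter with normexp background correction. Here too the members share arrays, and no test was made over them.

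In DoxyNaB relative to NaB 0 members passed in limma, where 2.72% of all genes did, 3 had an unadjusted p under 0.05 (16.1% of all genes), and the methods' t-test gave 0 at an unadjusted p under 0.01. The smallest adjusted p was 0.144, the median change was 0.01 and the medians by experiment ran from -0.27 to 0.30. For each gene the interaction also equals the Doxy/Ctl change minus the DoxyNaB/NaB change. The interaction median of -0.13 thus reuses the values behind the Doxy/Ctl median of -0.14, and these leans are not separate results.

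The rest of the mitotic and replication machinery gives the members' setting. Lists of other genes of these pathways, which exclude the members, were written by pathway. In NaB relative to Ctl, 14 of 34 other kinetochore genes were called lower, 4 of 12 cohesin genes, 2 of 15 genes of the anaphase-promoting complex, 15 of 34 other spindle and cytokinesis genes, 24 of 40 genes of mitotic entry and its transcription, and 24 of 46 DNA replication genes, where 11.5% of all genes were. The share of the anaphase-promoting complex, 13.3%, was near that of all genes. The median changes were -0.83, -0.62, -0.10, -0.83, -1.32 and -1.07 in that order, all nearer to 0 than that of the members. In these lists 1 gene was called higher, LIN37, a subunit of the MuvB core. Combined, 59 of 135 other mitotic genes were called lower, with a median of -0.86. With doxycycline the members did not have the lowest median. In DoxyNaB relative to Doxy it was -1.28, beside -1.29 for mitotic entry and its transcription, and the remaining lists lay between -1.07 and -0.14. There 60.4% of members and 60% of the genes of mitotic entry were called lower, where 12.5% of all genes were.

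**Figure D5:**
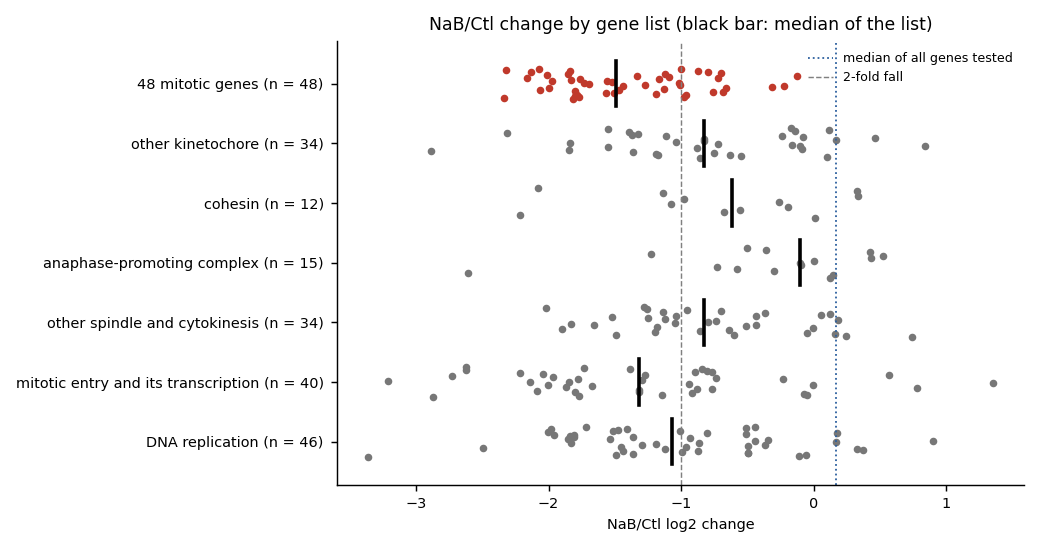
Log2 change in NaB relative to Ctl for each gene of the 48 members and of the 6 other lists, 1 point per gene, with a black bar at the median of each list, a dotted line at the median of all genes and a dashed line at a 2-fold fall. The members' median of -1.49 is the lowest, and the anaphase-promoting complex has the median nearest to 0, -0.10.

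Among the other kinetochore genes PMF1, a subunit of the Mis12 complex, fell by 2.89 and CENPM, an inner kinetochore subunit, fell by 2.32 on the log2 scale, while MAD1L1, the partner of Mad2, rose by 0.84. Among cohesin genes STAG2, a ring subunit, fell by 2.21 and CDCA5, sororin, which holds cohesin on DNA, fell by 2.08, while NIPBL, which loads cohesin, rose by 0.33. FBXO5, the inhibitor of the anaphase-promoting complex in interphase, fell by 2.61, ANAPC13 fell by 1.23, and ANAPC2, its cullin subunit, rose by 0.52. BORA (listed as C13orf34), the activator of AURKA, fell by 2.02 and MKI67, the coat of mitotic chromosomes, fell by 1.90, while TUBGCP6 of the gamma-tubulin ring rose by 0.74. In mitotic entry E2F8, a repressor of the E2F family, fell by 3.21, WEE1, the kinase that holds CDK1 inactive, fell by 2.87, and LIN37 rose by 1.35. In DNA replication TYMS, thymidylate synthase, fell by 3.36 and POLE2, a polymerase epsilon subunit, fell by 2.49, while ORC4 (listed as ORC4L), of the origin recognition complex, rose by 0.90. All of these falls and rises passed the adjusted p in limma.

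Several factors of the MuvB and DREAM complexes, which read the CHR element, were measured on the same arrays. FOXM1, which drives the late cell cycle genes, lay from 1.29 to 2.02 (median 1.42) in Ctl and from -0.87 to -0.32 (median -0.65) in NaB, and fell by 2.14 on the log2 scale (adjusted p = 1.13e-11). MYBL2, B-Myb, fell by 1.87 (adjusted p = 3.76e-12), LIN9 of the MuvB core had a log2 change of -2.001 (adjusted p = 6.48e-07), and LIN54, the DNA-binding subunit of that core, changed by -0.01 (adjusted p = 0.963). RBL1, p107, fell by 0.92, and RBL2, p130, changed by -0.07 (adjusted p = 0.612). CDK1 (listed as CDC2) and CCNB1, the mitotic kinase and its cyclin, fell by 2.05 and 1.73, and CDKN1A, the p21 inhibitor of cyclin-dependent kinases, rose by 0.57 (adjusted p = 0.000173).

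Of the listed genes outside the members, CDC25B, the phosphatase that activates CDK1, was the only one past the interaction, and it is named after its values were seen. It fell by 0.80 in NaB relative to Ctl and rose by 1.07 in DoxyNaB relative to Doxy, with an interaction of -1.87 (adjusted p = 8.23e-08). KNTC1, a subunit of the kinetochore RZZ complex, was also named after its values were seen, and it changed by -0.37 in DoxyNaB relative to NaB (adjusted p = 0.000932).

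The motif shares can be set beside the calls. Of the 32 members with a promoter window that were called lower in NaB relative to Ctl, 28 (87.5%) held TTTGAA, and of the 9 not called 3 (33.3%) did. CCAAT was in 24 of the 32 (75%) and 5 of the 9 (55.6%). These are counts over members that share a pathway, with no test, and they say nothing of whether a factor binds there.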

How the data were processed

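Gene expression was measured on 24 one-color Agilent arrays. The deposited files hold the intensity of each spot (Agilent Feature Extraction 9.5.3.1), per the file headers with background and spatial trend removed within each array and no scaling between arrays. The authors analysed the values with a paired test, here the methods' t-test. Groups came from the sample labels.

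Control spots and spots flagged as outliers (359 to 795 of the 43118 non-control spots per array) were left out. Replicated probes, each with 10 spots, were averaged, and the log2 of the 75th percentile signal of the array (380.2 to 1323) was subtracted. Testing covered the 18962 probes for which any 1 treatment had 6 arrays well above background. Precision is limited by the number of arrays and by signal over background.

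A single limma model (version 3.58.1, R 4.3.3) took in all 24 arrays, with a term for each treatment and each experiment, and p-values were adjusted by Benjamini-Hochberg. The methods' paired test is the source of the pairing. Of 36 pairs of arrays of the same experiment the correlation of deviations from the group means ran from -0.224 (NaB and DoxyNaB of experiment 3) to 0.853, and the next lowest was 0.219. On simulated data with 200 of 18327 probes changed between NaB and Ctl, 188 changed probes were called, 200 had the right sign and 0 unchanged probes were called.

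Members given with values per group were, in each role group, the 2 with the lowest and the 1 with the highest change in NaB relative to Ctl, and those whose probes disagree, with CDC20 added for its interaction. Of each other list the 2 lowest and the 1 highest were named, beside 10 fixed genes of mitotic control. The members, lists and tests were chosen with earlier results of these data known. Probe coordinates are those of the files (NCBI36), and promoter sequences are from RefSeq (GRCh38.p14). Alternatives in background correction, scaling, filter, block and samples were tried. Tables and plots were made in Python 3.11.15.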

Additional observations from a re-analysis of the deposited data

Results flagged for a closer look

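In 18 of 192 series of 4 to 6 values (9.38%) for the members' levels or changes, the highest or lowest array stood apart from the others by a gap large relative to the range, where chance gives about 1 in 20. Experiment 1 held 11 of them. Levels and changes reuse the same arrays, so the series are not independent and the share of 9.38% is not a test against chance. The 192 series did not take in the levels of every member. All flagged levels were of members given above with values per group. In experiment 1 the Ctl levels of BUB1B (2.49), ESPL1 (1.85), KIF15 (0.71) and TACC3 (3.16) were the highest of 6, as were the Doxy levels of ESPL1 (1.52) and PLK1 (2.81). Also in experiment 1 the Doxy levels of PRC1 (3.096), NCAPG2 (-1.90) and TOP2A (0.75) were the lowest of 6, the NaB/Ctl change of ESPL1 (-3.13) was the lowest and the DoxyNaB/Doxy change of NCAPG2 (0.84) was the highest.

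In experiment 2 the DoxyNaB levels of CENPA (-2.92) and SMC4 (-1.11) and the DoxyNaB/Doxy change of NCAPD2 (-1.498) were the lowest of 6, the DoxyNaB/Doxy change of ZWINT (-2.69) was the lowest of 5, and the DoxyNaB array of that experiment had the highest negative controls. The remaining values were the Doxy level of BUB1B in experiment 4 (1.90, the lowest), the Doxy level of BUB3 in experiment 6 (3.74, the highest) and the NaB/Ctl change of SMC4 in experiment 5 (-0.94, the highest of 4). Their cause was not tested.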

How the results depend on the processing

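The falls under butyrate kept their direction in every alternative run for all 36 members called in NaB relative to Ctl and all 29 called in DoxyNaB relative to Doxy, and 24 and 23 of them kept the call in each. Which members were called in NaB relative to Ctl alone depended on the processing. Their number of 7 became 2 with normexp, 4 with quantile normalization, 2 with a floor of 5 and median scaling, 4 with the slide as block, 4 in experiments 2 to 4, 2 in experiments 5 and 6, 3 at 1.5-fold and 1 without a fold threshold, and ran from 3 to 7 with 1 experiment left out. Without experiment 1 the NaB/Ctl calls of DLGAP5 (-0.94), KIF4A (-0.89), NCAPD2 (-0.98) and ASPM (-0.92) were lost. Members lower in DoxyNaB relative to Doxy numbered 44 with the floor and median scaling and 44 without a fold threshold.

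The floor of 5 and median scaling, run together, also moved the members' median to -2.24 in NaB relative to Ctl and to -1.84 in DoxyNaB relative to Doxy, which was -1.499 with quantile normalization and -1.06 in experiments 5 and 6. Other mitotic genes called lower numbered 95 with the floor and median scaling and 94 without a fold threshold, and DNA replication genes 39 and 38. The unadjusted t-test gave 13 members in Doxy relative to Ctl and 2 in the interaction. The sign turned for NCAPH in DoxyNaB relative to Doxy (0.25 with normexp, 0.44 in experiments 2 to 4) and in NaB relative to Ctl (0.25 in experiments 2 to 4), and for CENPE in DoxyNaB relative to Doxy (0.0012 without experiment 2, where leaving out other experiments gave values down to -0.15, and 0.027 without the 2 butyrate arrays with the brightest negative controls, 0.19 in experiments 5 and 6) and in NaB relative to Ctl (0.15 in experiments 5 and 6). The cause of these changes was not tested.

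With 1 experiment left out the members lower were 32 to 38 in NaB relative to Ctl and 28 to 32 in DoxyNaB relative to Doxy. Of all 18962 tested probes 1998 to 2115 and 2252 to 2380 were called lower in these runs. The experiment as a replicate block pairs the arrays. Without this block 36 and 29 members were lower, beside 2023 and 2233 of all tested probes. The tested probes past the adjusted p in NaB relative to Ctl then fell in number from 12945 to 10266. Taking the 75th percentile over probes was an alternative chosen after seeing the data, and it kept the counts within 1.5 times. Of the 8 members not counted as well above background on all arrays, CASC5, SPC24, NCAPG and NCAPH were limited by signal over background. The others, AURKB, AURKA, ZWINT and SMC4, lacked values because spots were left out as outliers.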
